A study of Mus musculus with 6 samples.

Results

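The genes described here are Il1a, Csf3, Cxcl1, Csf1, Ccl2 and Ccl7, which encode secreted cytokines and chemokines of inflammation. They were chosen by name because earlier results of these data had shown Il1a, Csf3 and Cxcl1 far highest in HC11 and Ccl7 and Csf1 far highest in C57MG. All 6 were among the 11417 genes of the expression table, and all 6 had at least 1 RPKM in at least 2 libraries. RPKM counts reads relative to the gene's length and the library's total, so levels of different genes can be compared per length. Since the members were chosen for their levels in the 3 lines, those levels are a description and carry no test.

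The study sequenced poly(A) RNA of 3 untreated mouse mammary lines grown on plastic, BC44, HC11 and C57MG, with 2 libraries of each. BC44 was grown in RPMI with 10% serum and insulin at 5 µg/ml. HC11 had the same medium with epidermal growth factor (EGF) added at 10 ng/ml, and C57MG had DMEM with 10% serum and insulin at 10 µg/ml. No genetic change or treatment is named for any line, and all were harvested 2 days after plating. Medium and line cannot be told apart. The labels do not say that the replicates of a line came from separate cultures, so p-values measure only the spread between these libraries, which may be technical. HC11 is a clonal derivative of the COMMA-1D mammary line.

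Interleukin 1 alpha, the product of Il1a, acts through the interleukin 1 receptor IL1R1 and its partner IL1RAP, which signal through MYD88 and IRAK kinases to NF-kB. Csf3 encodes granulocyte colony-stimulating factor and Cxcl1 a neutrophil attractant that acts through CXCR2, and both are textbook targets of interleukin 1 signalling in epithelial cells. Csf1 encodes the growth factor of macrophages, and Ccl2 and Ccl7 encode monocyte attractants that act through CCR2. In the mammary gland CSF1 and CCL2 are known for the recruitment of macrophages. The messenger RNAs of many such factors carry AU-rich stretches in the 3′ untranslated region (UTR), where proteins such as ZFP36 speed their decay.

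RefSeq promoter sequences (build GRCm38.p6, 250 bases before to 50 after the start site) were matched for 3 of the 6 members, Il1a, Cxcl1 and Csf1. They are shown because the NF-kB pathway genes are compared between the lines below. Capitals mark matches, on either strand, to the NF-kB consensus, to the AP-1 site TGANTCA, to the CRE site TGACGTCA or to the TATA box TATAAA.
Il1a, chr2:129309923-129310222, minus strand: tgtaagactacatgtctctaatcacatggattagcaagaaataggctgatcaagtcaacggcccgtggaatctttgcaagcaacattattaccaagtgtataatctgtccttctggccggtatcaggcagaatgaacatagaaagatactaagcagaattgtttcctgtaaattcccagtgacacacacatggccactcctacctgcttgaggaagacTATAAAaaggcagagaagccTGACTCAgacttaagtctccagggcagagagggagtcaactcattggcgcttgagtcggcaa
Cxcl1, chr5:90890995-90891294, plus strand: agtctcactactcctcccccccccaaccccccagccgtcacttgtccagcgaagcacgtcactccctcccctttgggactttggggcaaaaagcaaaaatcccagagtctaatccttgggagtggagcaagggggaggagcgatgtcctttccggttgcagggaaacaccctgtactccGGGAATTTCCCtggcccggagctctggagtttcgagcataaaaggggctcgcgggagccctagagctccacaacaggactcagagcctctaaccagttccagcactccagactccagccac
Csf1, chr3:107760420-107760719, minus strand: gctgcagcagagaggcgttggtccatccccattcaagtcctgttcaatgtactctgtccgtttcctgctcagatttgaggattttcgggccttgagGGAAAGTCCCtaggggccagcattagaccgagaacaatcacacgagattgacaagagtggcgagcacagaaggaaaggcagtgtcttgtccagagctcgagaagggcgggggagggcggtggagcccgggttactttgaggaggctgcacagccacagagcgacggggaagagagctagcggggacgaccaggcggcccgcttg
The Cxcl1 window held an NF-kB match on both strands from base -71 to -61. The Csf1 window held 1 match from -154 to -145, on the strand opposite to the printed sequence. The Il1a window held no NF-kB match, but an AP-1 match from -12 to -6 and a TATA box from -32 to -27. Of 32544 promoter windows of this length, 4.53% held the NF-kB consensus, 7.79% the AP-1 site, 1.80% the CRE site and 13.6% the TATA box. Among the 11608 of these windows that belong to genes of the expression table, the shares were 5.23%, 5.44%, 3.16% and 6.99%. A match is a string of letters and not a shown binding site.

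The neighbouring chemokine genes Cxcl2 and Cxcl3, which are compared with Cxcl1 below, held the same NF-kB letters within a similar distance of their start sites. The matching bases are in capitals, with 15 bases on each side, from base -71 in Cxcl1, -97 in Cxcl2 and -73 in Cxcl3.
Cxcl1: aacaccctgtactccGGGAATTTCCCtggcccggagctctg
Cxcl2: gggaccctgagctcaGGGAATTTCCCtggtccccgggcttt
Cxcl3: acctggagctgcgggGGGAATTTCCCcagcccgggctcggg

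All 6 members carried the AU-rich pentamer ATTTA in the 3′ UTR of their GENCODE M21 transcripts. The densest 30 bases of each are shown with the ATTTA pentamers in capitals, since genes for the proteins that act on such stretches are compared below.
Cxcl1: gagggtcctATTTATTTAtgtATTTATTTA
Csf3: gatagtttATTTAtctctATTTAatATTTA
Il1a: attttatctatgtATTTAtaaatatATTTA
Csf1: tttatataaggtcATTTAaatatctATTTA
Ccl2: tgatgccttaattaatattaaacttATTTA
Ccl7: tggtctttaagttattaatatttttATTTA
Cxcl1 had 7 pentamers in a 3′ UTR of 592 bases and Csf3 had 6 in 669 bases, or 11.8 and 8.97 per kilobase. Only 0.531% and 1.27% of the 3′ UTRs of 10924 genes had more per kilobase, against a median of 1.34. Il1a had 3 in 1101 bases (2.72 per kilobase), and 23.8% of genes had more. Of the members that were highest in C57MG, Csf1 had 4 in 2111 bases (1.89 per kilobase), Ccl2 had 1 in 275 bases (3.64) and Ccl7 had 2 in 435 bases (4.60), and 38.1%, 13.9% and 8.25% of genes had more per kilobase. By density Ccl7 and Ccl2 thus lay above Il1a. The longer string TATTTAT was found in Il1a, Csf3, Cxcl1 and Csf1, was not found in Ccl2 or Ccl7, and was found in 29.8% of all the 3′ UTRs.

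Il1a (ENSMUSG00000027399, chromosome 2) was read at 386 RPKM in HC11 replicate 1 and 1058 RPKM in replicate 2. In BC44 it was listed at 0 in replicate 1 and at 0.290 RPKM in replicate 2, and in C57MG at 0.0840 and 0.0330 RPKM. The HC11 libraries stood above all others, and the lower HC11 library was 1332 times the highest library of the other lines. With depths estimated from the steps in low values, the BC44 libraries together held about 10 reads and the C57MG libraries about 4. The HC11 mean of 722 ± 475 RPKM (SD, n = 2) was 4518 times the pooled BC44 level (95% Poisson interval 2457 to 9421) and 11922 times that of C57MG (4656 to 43755). These intervals cover counting error only. In bulk RNA, fewer cells that express a gene and less of its RNA per cell cannot be told apart. By level Il1a was the 111th and the 21st gene of the HC11 libraries.

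Csf3 (ENSMUSG00000038067, chromosome 11) followed the same order at a lower level. Its HC11 libraries were at 231 and 595 RPKM, a mean of 413 ± 257 (SD, n = 2). BC44 was listed at 0 and 0.162 RPKM and C57MG at 0.0390 and 0 RPKM, which is about 4 reads and 1 read per line. The ratio of the HC11 mean to the pooled level was 4622 for BC44 (95% Poisson interval 1805 to 16963) and 19514 for C57MG (3502 to 770756). BC44 and C57MG overlapped for Csf3, as they did for Il1a.

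Cxcl1 (ENSMUSG00000029380, chromosome 5) had 442 and 964 RPKM in HC11, a mean of 703 ± 369 (SD, n = 2). Unlike Il1a and Csf3, it was above a floor of 3 reads in every library of the other lines, at 0.933 and 2.10 RPKM in BC44 and 0.290 and 0.885 RPKM in C57MG. The HC11 mean was 463 times the BC44 mean and 1197 times the C57MG mean. The lower HC11 library was 210.2 times the highest other library, and both BC44 libraries were above both C57MG libraries.

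**Figure D1:**
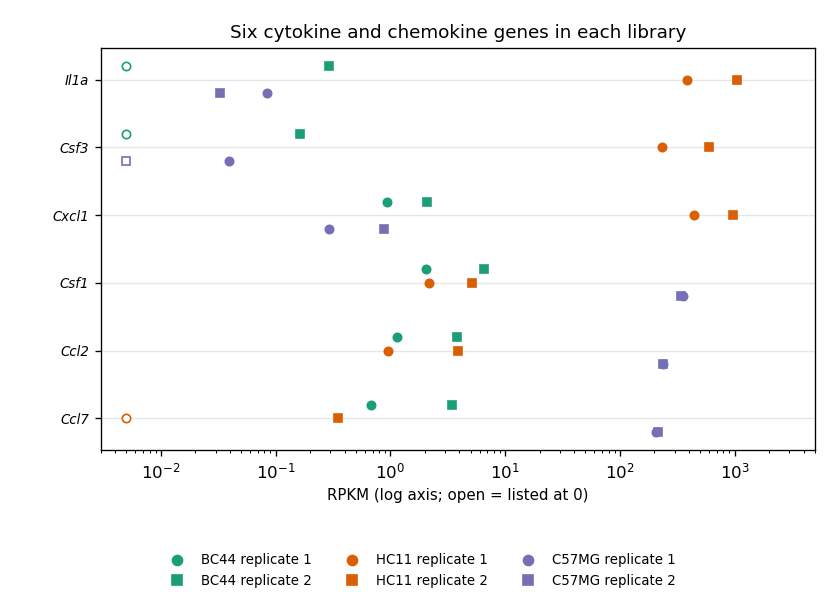
RPKM of the 6 genes in each of the 6 libraries on a log axis, coloured by line, with circles for replicate 1, squares for replicate 2 and open symbols for genes listed at 0. Il1a, Csf3 and Cxcl1 lie between 231 and 1058 RPKM in HC11, and Csf1, Ccl2 and Ccl7 lie between 205 and 354 RPKM in C57MG, each at 6.54 RPKM or less in the other lines.

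Csf1 (ENSMUSG00000014599, chromosome 3) had the highest level of the C57MG group, 354 and 339 RPKM in replicates 1 and 2. In BC44 it had 2.05 and 6.54 RPKM, and HC11 had 2.18 and 5.19 RPKM. The C57MG mean of 346 ± 10.6 RPKM (SD, n = 2) was 80.6 times that of BC44 and 94.0 times that of HC11. BC44 and HC11 overlapped.

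Ccl2 (ENSMUSG00000035385, chromosome 11) had 236 and 240.0 RPKM in C57MG, 1.14 and 3.78 RPKM in BC44 and 0.946 and 3.86 RPKM in HC11. The ratio of the C57MG mean, 238 ± 3.10 RPKM (SD, n = 2), was 96.7 to BC44 and 98.9 to HC11. Again BC44 and HC11 overlapped, and each had its higher value in replicate 2.

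Ccl7 (ENSMUSG00000035373), the next protein-coding gene after Ccl2 on chromosome 11, had 205 and 214 RPKM in C57MG. In BC44 it was at 0.683 and 3.43 RPKM, about 8 and 48 reads, and in HC11 it was listed at 0 and 0.349 RPKM, about 0 and 4 reads. The C57MG mean of 209.7 ± 6.11 RPKM (SD, n = 2) was 102 times the BC44 mean and 1362 times the pooled HC11 level (95% Poisson interval 532 to 4999.6). Ccl7 was the one gene of the C57MG group for which BC44 and HC11 did not overlap. No stretch of 50 bases was shared between the Ccl2 and Ccl7 transcripts, whose longest identical run was 23 bases. Over all 10759 genes tested, the libraries did not overlap for 73.0% between BC44 and HC11, 87.9% between BC44 and C57MG and 86.2% between HC11 and C57MG.

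The summed level of the 6 genes was 1063 and 2626 RPKM in HC11, 795 and 794 RPKM in C57MG, and 4.81 and 16.3 RPKM in BC44. As a share of the summed RPKM of a library this was 0.310% and 0.758%, 0.246% and 0.249%, and 0.00147% and 0.00491%. In BC44 the highest value of any member was 6.54 RPKM.

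Estimated depth ranged from 14040000 to 18400000 reads per library. The line labels were checked against marker genes. All 3 lines are labelled mammary epithelial, but the summed RPKM of 10 epithelial markers was 2255 to 5039.7 in BC44 and HC11 and 137 and 65.6 in C57MG, where Cdh1 was at 1.09 and 0 RPKM. Most of the BC44 sum was Krt5 (2012 and 1828 RPKM) and Krt14 (2716 and 2736 RPKM). The markers Krt8, Krt18, Cldn3 and Ocln were at 0.0640 RPKM or less in BC44, whereas in HC11 Krt8 was at 144 and 148 RPKM and Krt18 at 88.5 and 94.1. The summed RPKM of 9 mesenchymal markers was 2979.7 to 3383 in C57MG and 26.6 to 71.2 in the other lines. Of 13 leukocyte and macrophage markers, 3 (Cd68, Lyz2 and Cd14) were analysed here, with a summed RPKM of 32.1 and 31.1 in C57MG, 22.3 and 34.9 in HC11 and 3.39 and 3.63 in BC44. They differed in order: Lyz2 was at 18.6 and 17.2 RPKM in C57MG and at 0.317 or less in the other lines. Cd14 was at 19.6 and 31.9 RPKM in HC11, 10.1 and 11.1 in C57MG and 1.87 and 1.90 in BC44. Cd68 was at 1.36 to 3.30 RPKM in all 6 libraries. The defining leukocyte marker Ptprc and the macrophage marker Adgre1 were not among the genes of the table used here, so the part of such cells in the levels was not tested. The 2 endothelial markers analysed here of 6 summed to 0.252 to 2.38 RPKM.

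The low levels of the C57MG group in BC44 were higher in replicate 2, as were the mesenchymal markers, though Pdgfra differed little (0.954 and 0.987 RPKM). In BC44 replicates 1 and 2, Csf1 was at 0.593% and 1.89% of its C57MG mean, Ccl2 at 0.480% and 1.59%, and Ccl7 at 0.326% and 1.64%. The 9 mesenchymal markers lay between 0.578% and 6.62% in replicate 1 and between 1.82% and 10.6% in replicate 2. Ccl2 and Ccl7 were thus below the lowest marker in both BC44 libraries and Csf1 just above it. The markers nearest to Csf1 were Twist1 (0.578% and 1.82%), Vim (0.609% and 1.98%), Col1a1 (0.610% and 2.03%) and Pdgfrb (0.629% and 1.90%). The other markers lay higher in both BC44 libraries. The part of mesenchymal-like cells in these BC44 levels was not tested. In HC11 the markers lay between 0.0474% and 17.7% in replicate 1 (median 0.111%) and between 0.0657% and 18.3% in replicate 2 (median 0.160%). Within these ranges, Csf1 was at 0.630% and 1.5% and Ccl2 at 0.398% and 1.62%, above the medians. Ccl7 was at 0 and 0.166%. Replicate 2 of HC11 exceeded replicate 1 by 2.38-fold for Csf1 and 4.08-fold for Ccl2. The same ratio was 1.15 for Vim, 1.04 for Twist1 and 0.973 for Pdgfra, the mesenchymal markers that averaged 1 RPKM or more in HC11.

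The replicate libraries of HC11 and BC44 differed for the members by more than for most genes. In HC11 replicate 2 exceeded replicate 1 by 2.74-fold for Il1a, 2.58-fold for Csf3, 2.18-fold for Cxcl1, 2.38-fold for Csf1 and 4.08-fold for Ccl2. Among 9873 genes that averaged 1 RPKM or more in HC11, the middle 90% of such ratios (the 5th to the 95th percentile) ran from 0.717 to 1.38, and 1.10% of genes were past 2-fold. In BC44 the ratio was 2.26 for Cxcl1, 3.18 for Csf1, 3.31 for Ccl2 and 5.03 for Ccl7, with percentiles from 0.753 to 1.25. In C57MG it was 0.958 for Csf1, 1.02 for Ccl2 and 1.04 for Ccl7.

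Related genes showed such ratios as well. Of the other chemokine genes that averaged 1 RPKM or more, 4 of 7 were past 2-fold (replicate 2 over replicate 1) in HC11, among them Cxcl2 (7.37), Ppbp (5.25) and Cxcl3 (2.94), and 2 of 5 in BC44, Cxcl5 (3.31) and Cxcl12 (3.34). Of the other NF-kB responsive genes 7 of 17 were past 2-fold in HC11, with Nos2 at 3.86 and Ptgs2 at 3.48, and 1 of 9 in BC44, Ptx3 at 4.35. No gene of the cytokine, receptor, relay, release, NF-kB subunit and regulator or stability lists was past 2-fold in either line. Marker genes moved too. The summed RPKM of the epithelial markers in HC11 was 3138 in replicate 1 and 2255 in replicate 2, with ratios of 0.534 for Krt5 and 0.671 for Epcam, and 4 of 9 epithelial markers were higher in replicate 2. In C57MG the same sum was 137 in replicate 1 and 65.6 in replicate 2. There the 2 epithelial markers that averaged 1 RPKM or more fell, Krt5 from 16.0 to 0.148 RPKM and Krt14 from 118 to 64.8. In BC44 all 5 mesenchymal markers that averaged 1 RPKM or more were higher in replicate 2, with a median ratio of 1.82. Their ratios ran from 1.61 for Col3a1 to 3.25 for Vim and 3.33 for Col1a1. The part of these differences in the members' ratios was not tested.

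All 6 members were higher in replicate 2 than in replicate 1 in BC44 and in HC11, and 3 of 6 were in C57MG. Among genes that averaged 1 RPKM or more in a line and were above 0 in both libraries, 53.5%, 47.3% and 50.3% were higher in replicate 2 in BC44, HC11 and C57MG. Il1a and Csf3 in BC44, Ccl7 in HC11 and Il1a, Csf3 and Cxcl1 in C57MG were below that level but are counted among the members. The highest line of each member did not rest on this spread, because the lower library of the highest line was 51.8 times or more the highest library of any other line for each member. The order of BC44 and HC11 did for Csf1, where BC44 was the lower in replicate 1 and the higher in replicate 2, and for Ccl2, where it was the reverse. The mean level of Il1a, Csf3 and Cxcl1 in HC11 did too: it would be 386, 231 and 442 RPKM from replicate 1 alone and 1058, 595 and 964 RPKM from replicate 2 alone. What differed between the replicates is not given in the labels.

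**Figure D2:**
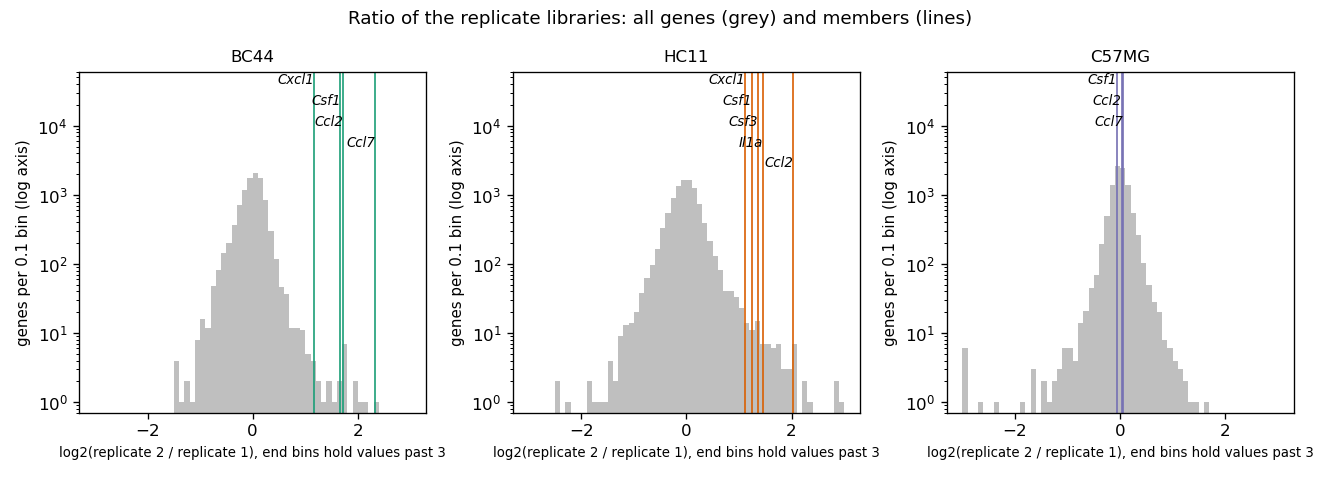
Number of genes (log axis) by the log2 ratio of replicate 2 to replicate 1 in each line, for genes that averaged 1 RPKM or more in that line, with vertical lines at the members that reach that level. The members lie at ratios of 2.18 to 4.08 in HC11 and 2.26 to 5.03 in BC44, past the bulk of the genes, and at 0.958 to 1.04 in C57MG.

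The other chemokine genes were split between HC11 and C57MG. Of 34 chemokine genes besides the members 11 were analysed here and 10 were tested with limma on log2(RPKM + 1), where a fold change of a low gene is understated. Some of them, such as Cxcl2 and Cxcl3, reached 1 RPKM only in the line where they were high, and were tested only through it. Between BC44 and HC11 6 of 10 had a limma adjusted p-value under 0.05, all higher in HC11, beside 47.7% of all genes (24.7% higher in BC44 and 23.0% in HC11). Between HC11 and C57MG all 10 passed, 5 higher in each line, beside 70.5% of all genes (37.4% higher in HC11 and 33.2% in C57MG). Between BC44 and C57MG 7 passed, 6 of them higher in C57MG, beside 71.7% (37.5% higher in BC44 and 34.1% in C57MG). The median log2 fold change of the 10 genes was -1.23 for BC44 minus HC11, -1.18 for BC44 minus C57MG and 0.64 for HC11 minus C57MG, against 0.02, 0.04 and 0.03 over all genes. Leaving out HC11 replicate 2 lowered the count between BC44 and HC11 to 3, and leaving out HC11 replicate 1 or C57MG replicate 1 lowered the count between HC11 and C57MG to 6. Between HC11 and C57MG the genes higher in HC11 were 2 without HC11 replicate 2 and 3 without HC11 replicate 1. Those higher in C57MG were 3 without HC11 replicate 1 or C57MG replicate 2 and 2 without C57MG replicate 1.

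The chemokine genes next to Cxcl1 on chromosome 5 were high in HC11. Cxcl2 and Cxcl3, which like Cxcl1 encode ligands of CXCR2, lie on either side of it among the genes of the table. Cxcl3 was at 33.9 and 99.9 RPKM in HC11, 0.0680 and 0.114 in BC44 and 0 in both C57MG libraries. Cxcl2 was at 14.3 and 105 RPKM in HC11, 0.130 and 0.272 in BC44 and 0 in both C57MG libraries. The log2 fold change for BC44 minus HC11 was -5.77 (SE 0.41, limma adjusted p 3.6e-05) for Cxcl3 and -5.07 (SE 0.74, limma adjusted p 0.0012) for Cxcl2. The transcripts of Cxcl2 and Cxcl3 share an identical run of 110 bases, so reads may have been split between them, while Cxcl1 shares no run over 23 bases with either. Past these neighbours, Mthfd2l, an enzyme of folate metabolism, was at 16.8 and 15.8 RPKM in HC11, 11.2 and 13.9 in BC44 and 6.81 and 6.73 in C57MG.

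Cxcl5, a further CXCR2 ligand, was the most abundant chemokine gene outside the members. It was at 683 and 1405 RPKM in HC11, 244 and 395 in C57MG and 2.40 and 7.93 in BC44, and so was high in both lines that hold the members. Limma put its log2 fold change at -7.48 (SE 0.50, limma adjusted p 2.58e-05) for BC44 minus HC11 and -5.82 (SE 0.50, limma adjusted p 2.63e-05) for BC44 minus C57MG. The smaller difference between HC11 and C57MG (1.65, SE 0.50, limma adjusted p 0.0188) did not pass without HC11 replicate 2 (1.13, limma adjusted p 0.0943) or without C57MG replicate 1 (1.31, limma adjusted p 0.0798).

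Cxcl12, a chemokine of stromal cells, followed the C57MG group, with 92.8 and 103 RPKM in C57MG, 0.485 and 1.62 in BC44 and 0.323 and 0.819 in HC11. Cx3cl1, the membrane-bound chemokine fractalkine, was at 65.6 and 68.0 RPKM in C57MG, 15.5 and 13.8 in HC11 and 3.43 and 4.19 in BC44. The log2 fold change for HC11 minus C57MG was -5.99 (SE 0.27, limma adjusted p 1.08e-06) for Cxcl12 and -2.12 (SE 0.11, limma adjusted p 2.19e-06) for Cx3cl1.

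The other cytokine genes were more often highest in HC11. Of 48 genes 19 were analysed here and 16 tested. HC11 had the highest mean and passed against both other lines for 8 of 16, beside 11.9% of all genes, and C57MG did for 2 of 16, beside 25.9%. BC44 did for 1 of 16, beside 15.1%. Some of the genes counted, such as Il24 and Tslp, reached 1 RPKM only in HC11, so they were tested only through the line where they were high. Between BC44 and HC11 9 were higher in HC11 and 2 in BC44, beside 23.0% and 24.7% of all genes, with a median log2 fold change of -1.10. Between HC11 and C57MG 9 were higher in HC11 and 3 in C57MG, beside 37.4% and 33.2%, with a median of 1.37. Between BC44 and C57MG 5 were higher in each line (62.5% in all, beside 71.7%), with a median of 0.08. Without HC11 replicate 1 the count between HC11 and C57MG fell from 12 to 7, 4 of them higher in HC11, and without HC11 replicate 2 it was 9, with 5 higher in HC11. The count between BC44 and HC11 fell from 11 to 7 without HC11 replicate 1 and to 6 without replicate 2, with 4 higher in HC11 in each case.

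Il6, Il24 and Lif led the cytokine genes of HC11. Il6, the acute-phase cytokine, was at 58.2 and 90.3 RPKM in HC11, 0 and 0.105 in BC44 and 1.17 and 0.895 in C57MG. Il24, a member of the interleukin 10 family, was at 121 and 225 RPKM in HC11 and at no more than 0.544 in any other library. Lif, which signals through gp130 as interleukin 6 does, was at 55.0 and 99.2 RPKM in HC11, 2.89 and 4.47 in BC44 and 0.903 and 0.656 in C57MG. For HC11 minus C57MG limma put the log2 fold change at 5.18 (SE 0.20, adjusted p 6.19e-07) for Il6, 7.21 (SE 0.28, 6.47e-07) for Il24 and 5.40 (SE 0.28, 2.17e-06) for Lif. Kitl, the ligand of the KIT receptor, was instead highest in C57MG, at 18.2 and 19.1 RPKM against 1.81 and 2.23 in HC11 and 1.10 and 1.75 in BC44. Mif, a cytokine gene expressed in most cells, was at 685 to 770.0 RPKM in all 6 libraries and passed in no contrast. Clcf1, a cytokine of the interleukin 6 family, was at 14.1 and 13.2 RPKM in C57MG, 6.63 and 12.6 in HC11 and 3.10 and 2.58 in BC44. Il17d, of the interleukin 17 family, was at 2.19 to 3.09 RPKM in BC44 and HC11 and at 0.0910 and 0 in C57MG (log2 fold change for HC11 minus C57MG 1.92, SE 0.11, limma adjusted p 4.12e-06).

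**Figure D3:**
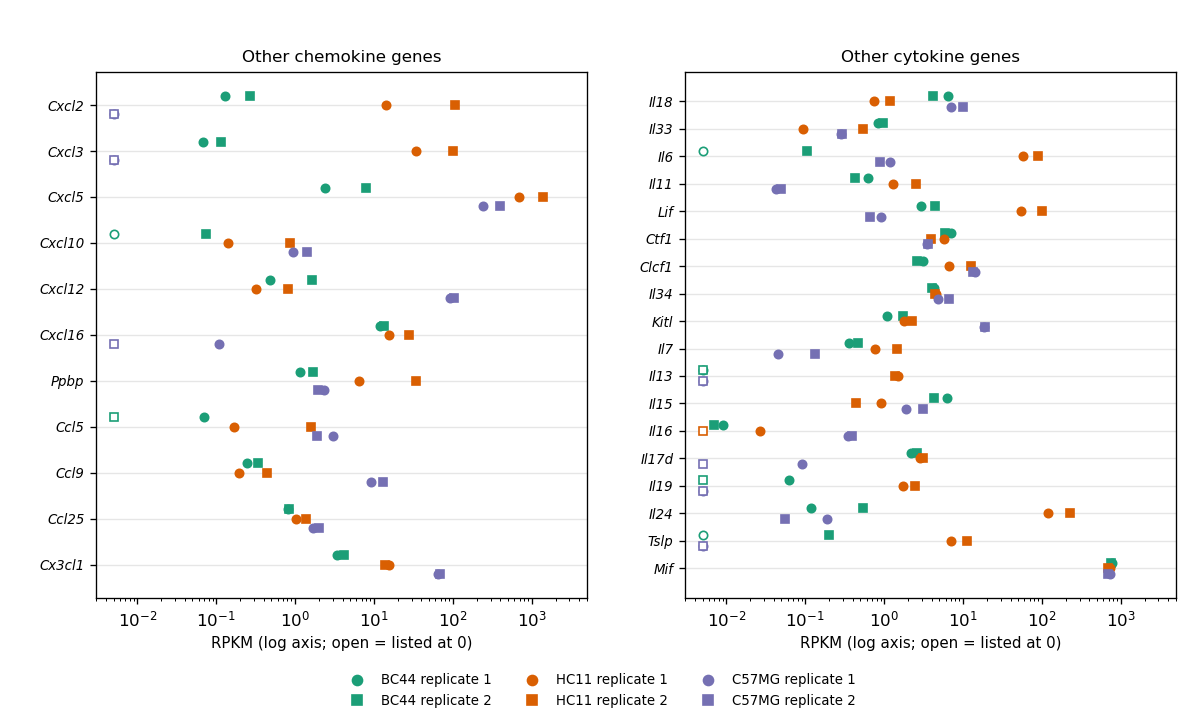
RPKM of the 11 other chemokine genes (left) and other cytokine genes (right) in each library on a log axis, with open symbols for genes listed at 0. Cxcl2, Cxcl3, Cxcl5, Il6, Il24 and Lif are at 14.3 to 1405 RPKM in HC11, and Cxcl12, Cx3cl1 and Kitl are highest in C57MG.

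Of 13 receptor genes of the members only Il1r1 and Il1rap, both subunits of the interleukin 1 receptor, were analysed here. Il1r1 was at 19.6 and 18.1 RPKM in C57MG, 6.99 and 8.56 in BC44 and 5.07 and 4.98 in HC11. Il1rap was at 23.5 and 22.5 RPKM in HC11, 10.4 and 10.1 in C57MG and 2.88 and 3.03 in BC44. The receptor chain Il1r1 was therefore lowest in HC11, the line with the most Il1a, while the accessory chain Il1rap was highest there. For HC11 minus C57MG limma put the log2 fold change at -1.72 (SE 0.11, adjusted p 8.32e-06) for Il1r1 and 1.10 (SE 0.09, adjusted p 2.68e-05) for Il1rap. For BC44 minus HC11 it was 0.54 (SE 0.11, limma adjusted p 0.00699) and -2.60 (SE 0.09, limma adjusted p 1.73e-06).

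Genes for the release and the antagonists of interleukin 1 were mostly highest in C57MG, with the receptor antagonist Il1rn as an exception. Of 13 genes 10 were analysed here and 9 tested, of which 5 passed between BC44 and HC11 (55.6%, beside 47.7% of all genes), 7 between BC44 and C57MG (77.8%, beside 71.7%) and 7 between HC11 and C57MG (77.8%, beside 70.5%). The median log2 fold changes were -0.32, -1.37 and -0.85. C57MG was highest and passed against both other lines for 5, beside 25.9% of all genes, and HC11 for 1, beside 11.9%. Some of these genes, such as Il1rn in HC11 and Gsdmd in C57MG, reached 1 RPKM only in the line where they were high. They were tested only through it, so these counts are descriptions. Il1rn was at 7.0 and 11.3 RPKM in HC11, 0.405 and 0.375 in BC44 and 0.0350 and 0 in C57MG, and its log2 fold change for BC44 minus HC11 was -2.83 (SE 0.19, limma adjusted p 2.47e-05). S100a13, which takes part in the non-classical export of interleukin 1 alpha, was at 86.8 and 91.1 RPKM in C57MG and 7.53 to 12.5 in the other lines. Gsdmd, the pore-forming gasdermin D, was at 10.7 and 11.6 RPKM in C57MG and at 0.161 or less in the other lines. Capns1, the small subunit of the calpains that cut the interleukin 1 alpha precursor, was at 101 and 110.3 RPKM in C57MG, 69.6 and 76.0 in HC11 and 25.4 and 23.3 in BC44. Casp1, the protease that matures interleukin 1 beta, was highest in BC44, at 46.0 and 54.1 RPKM against 11.4 and 12.8 in HC11, a log2 fold change of 1.96 (SE 0.10, limma adjusted p 8.97e-06).

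In the relay below the interleukin 1 receptor, 5 of 13 tested genes passed between BC44 and HC11 (38.5%, beside 47.7% of all genes), 4 of them higher in HC11, and the median log2 fold change was -0.18. Myd88, the adaptor of the receptor, was at 13.9 and 12.6 RPKM in C57MG, 9.24 and 10.8 in HC11 and 6.42 and 6.90 in BC44 (log2 fold change for BC44 minus HC11 -0.52, SE 0.11, limma adjusted p 0.00676). Against C57MG, 8 genes were higher there than in BC44 (10 of 13 passed, 76.9% beside 71.7% of all genes) and 6 were higher there than in HC11 (8 of 13 passed, 61.5% beside 70.5%), with median log2 fold changes of -0.42 and -0.17. Irak4, the first kinase of the relay, was at 7.31 and 7.57 RPKM in C57MG, 3.70 and 2.92 in HC11 and 2.27 and 2.20 in BC44. Irak2, a kinase that acts with it, was at 1.39 and 0.875 RPKM in BC44 and 3.00 to 3.42 in the other lines. Peli2, a ubiquitin ligase of this relay, was at 16.8 and 18.5 RPKM in C57MG and at 0.333 or less in the other lines. Peli3 was at 1.02 and 1.03 RPKM in C57MG and at 0.184 or less elsewhere, whereas Peli1 was highest in BC44, at 8.11 and 8.97 RPKM against 4.91 to 6.51. Leaving out any one BC44 or C57MG library lowered the count between BC44 and HC11 to 2 or 3. Leaving out either C57MG library lowered the count against BC44 to 6 and that against HC11 to 3.

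Genes of NF-kB itself and of its regulators were more often highest in HC11. All 21 listed genes were tested, and HC11 had the highest mean and passed against both other lines for 9, beside 11.9% of all genes. Some of the genes counted reached 1 RPKM only in HC11, and were tested only through that line. Between BC44 and HC11 11 were higher in HC11 and 2 in BC44, beside 23.0% and 24.7% of all genes, and between HC11 and C57MG 13 were higher in HC11 and 2 in C57MG, beside 37.4% and 33.2%. The median log2 fold changes were -0.35 and 0.73. Between BC44 and C57MG 5 were higher in BC44 and 7 in C57MG (57.1% in all, beside 71.7%), with a median of -0.17. Bcl3, a nuclear co-activator of the family, was at 16.1 and 16.8 RPKM in HC11, 0.165 and 0.161 in BC44 and 2.36 and 2.85 in C57MG. Nfkbiz, which encodes a nuclear regulator of secondary response genes, was at 27.5 and 34.8 RPKM in HC11, 5.22 and 4.73 in BC44 and 5.62 and 7.06 in C57MG. For BC44 minus HC11 limma put the log2 fold change at -3.91 (SE 0.11, adjusted p 9.28e-07) for Bcl3, -2.42 (SE 0.15, adjusted p 1.61e-05) for Nfkbiz and -2.35 (SE 0.11, adjusted p 4.8e-06) for Nfkbie, an inhibitor.

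The subunit genes Nfkb1 and Rela were among the more abundant of these genes. Nfkb1 was at 83.9 and 81.7 RPKM in HC11, 47.3 and 45.4 in C57MG and 22.0 and 23.0 in BC44. Rela, the main activating subunit, was at 37.4 and 43.8 RPKM in HC11, 34.9 and 36.3 in BC44 and 32.6 and 32.0 in C57MG, and did not pass between BC44 and HC11. Ikbkg, the scaffold of the kinase complex, was highest in C57MG, with a mean of 28.9 ± 1.57 RPKM (SD, n = 2) against 5.92 ± 0.426 (SD, n = 2) in HC11, a log2 fold change for HC11 minus C57MG of -2.11 (SE 0.10, limma adjusted p 1.77e-06).

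Other genes known to respond to NF-kB mostly followed HC11. Of 31 genes 20 were analysed here and 18 tested. HC11 had the highest mean and passed against both lines for 10 of 18, beside 11.9% of all genes, and C57MG did for 4 of 18, beside 25.9%. Some of these genes, such as Nos2, reached 1 RPKM only in the line where they were high, and were tested only through it. Between BC44 and HC11 14 were higher in HC11 and 2 in BC44, beside 23.0% and 24.7%, and between HC11 and C57MG 12 were higher in HC11 and 5 in C57MG, beside 37.4% and 33.2%. The median log2 fold changes were -1.82 and 1.19. Between BC44 and C57MG 3 were higher in BC44 and 8 in C57MG (61.1% in all, beside 71.7%), with a median of -0.26. Without HC11 replicate 2 the genes higher in HC11 fell to 9 against BC44 and to 7 against C57MG, and those higher in C57MG than in HC11 were 3 without C57MG replicate 1 and 2 without C57MG replicate 2. Lcn2, the iron-binding lipocalin 2, was at 124 and 249.7 RPKM in HC11, 0.0300 and 0.10 in BC44 and 5.10 and 9.30 in C57MG. C3, the central complement component, was at 124 and 163 RPKM in HC11, 1.73 and 1.97 in BC44 and 14.9 and 26.4 in C57MG. For BC44 minus HC11 limma put the log2 fold change at -7.38 (SE 0.34, adjusted p 4.95e-06) for Lcn2 and -5.65 (SE 0.24, adjusted p 3.63e-06) for C3.

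Nos2, Ptgs2 and Ptx3 departed from one another. Nos2, the inducible nitric oxide synthase, was at 10.6 and 40.9 RPKM in HC11 and at 0.0790 or less elsewhere. Ptgs2, the inducible cyclooxygenase, was at 150 and 521 RPKM in HC11, 127 and 205 in BC44 and 6.34 and 4.02 in C57MG, and so was the one gene of this list that was above 100 RPKM in BC44 besides Gadd45b. Ptx3, a secreted pentraxin, was at 131 and 135 RPKM in C57MG, 0.536 and 2.33 in BC44 and 0.642 and 2.03 in HC11. For HC11 minus C57MG limma put the log2 fold change at 4.38 (SE 0.50, adjusted p 0.000142) for Nos2, 5.53 (SE 0.53, adjusted p 5.65e-05) for Ptgs2 and -5.91 (SE 0.38, adjusted p 7.26e-06) for Ptx3.

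**Figure D4:**
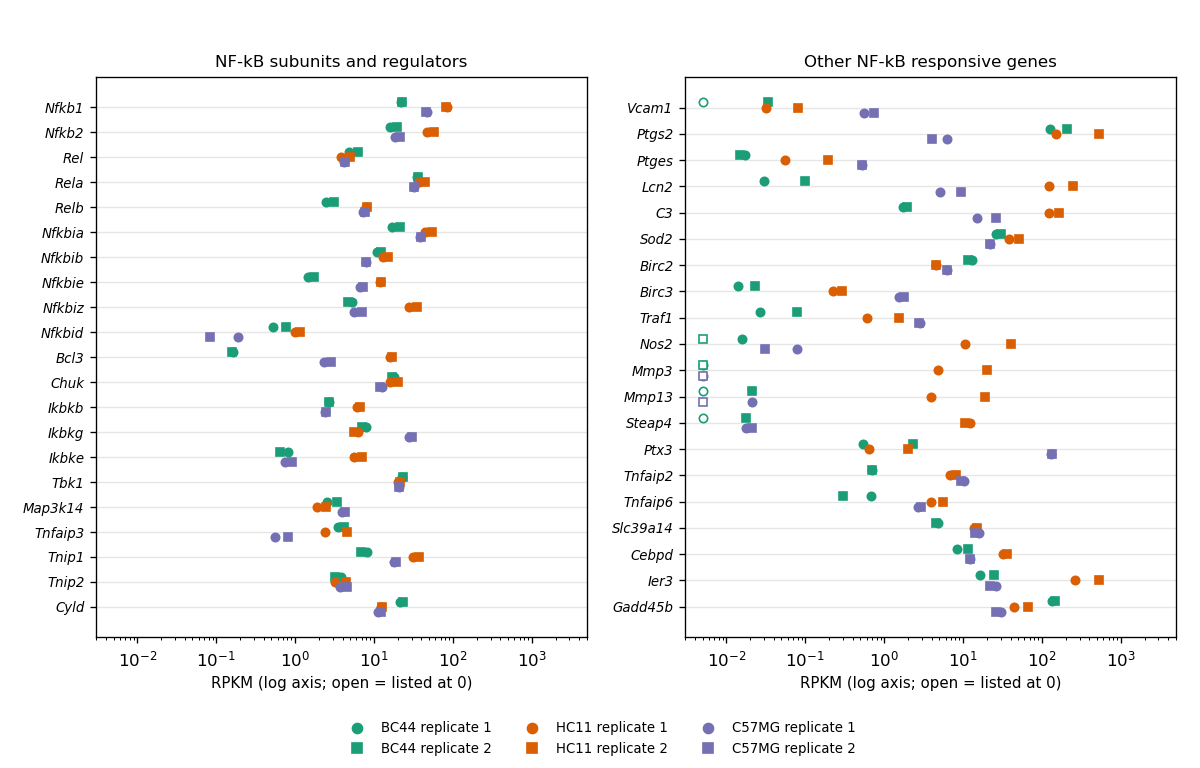
RPKM of 21 genes of NF-kB subunits and regulators (left) and 20 other NF-kB responsive genes (right) in each library on a log axis, with open symbols for genes listed at 0. Bcl3, Nfkbiz, Lcn2, C3 and Nos2 are highest in HC11, Ikbkg and Ptx3 are highest in C57MG, and Rela lies between 32.0 and 43.8 RPKM in all 6 libraries.

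Regulators of cytokine messenger RNA stability were compared because of the AU-rich stretches shown for Cxcl1 and Csf3. Of 14 genes 13 were tested. Between BC44 and HC11 5 passed (38.5%, beside 47.7% of all genes), all higher in HC11, and between HC11 and C57MG 9 passed (69.2%, beside 70.5%), 8 of them higher in HC11, beside 37.4% of all genes. The median log2 fold change was 0.02 for BC44 minus HC11 and 0.54 for HC11 minus C57MG. Between BC44 and C57MG 9 passed (69.2%, beside 71.7%), 7 of them higher in BC44, beside 37.5%, with a median of 0.21. The 7 became 4 without BC44 replicate 2. Zc3h12a, the endonuclease regnase-1 that degrades cytokine transcripts, was at 26.4 and 34.3 RPKM in HC11, 1.64 and 1.37 in BC44 and 5.68 and 5.45 in C57MG. Arid5a, which protects Il6 transcripts from decay, was at 8.81 and 9.25 RPKM in HC11 and at 0.942 to 1.21 RPKM in the other lines. For BC44 minus HC11 limma put the log2 fold change at -3.64 (SE 0.14, adjusted p 2.3e-06) for Zc3h12a and -2.28 (SE 0.11, adjusted p 5.23e-06) for Arid5a, so genes of opposite action were both higher in HC11.

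Within the Zfp36 family of AU-rich element binding proteins the members differed. Zfp36l2 was at 164 and 134 RPKM in C57MG, 41.8 and 49.2 in HC11 and 5.37 and 7.26 in BC44. Zfp36l1 was at 115 and 104 RPKM in HC11, 96.4 and 85.4 in BC44 and 17.6 and 22.3 in C57MG, and Zfp36 itself at 10.1 and 12.2, 12.1 and 10.6, and 4.75 and 4.63 RPKM in the same order. The log2 fold change for HC11 minus C57MG was -1.69 (SE 0.16, limma adjusted p 4.75e-05) for Zfp36l2 and 2.41 (SE 0.12, limma adjusted p 2.28e-06) for Zfp36l1.

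**Figure D5:**
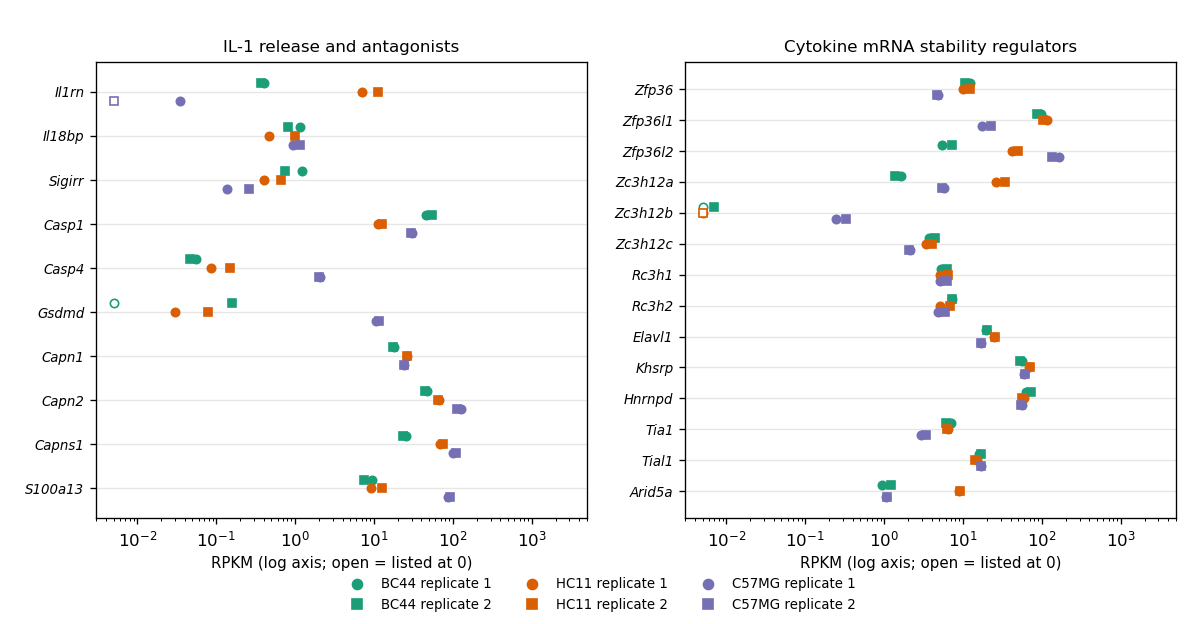
RPKM of 10 genes of interleukin 1 release and antagonists (left) and 14 regulators of cytokine messenger RNA stability (right) in each library on a log axis, with open symbols for genes listed at 0. Il1rn, Zc3h12a and Arid5a are highest in HC11, S100a13, Gsdmd and Zfp36l2 are highest in C57MG, and Casp1 is highest in BC44.

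The genes whose profiles were most like each member were ranked by Pearson's r of log2(RPKM + 1) over the 6 libraries, among 928 tested genes whose values spanned at least 3 on that scale. The libraries fall into 3 lines, so r mostly reflects the pattern by line, and 31 to 74 genes had r over 0.99 with each member. For Il1a the nearest were Csf3 (1.0000), the ubiquitin ligase gene Rnf19b (0.9999) and Il24 (0.9995). For Csf3 they were Il1a, Rnf19b (0.9999) and the adhesion receptor gene Adgrg2 (0.9997). For Cxcl1 they were the cytokine gene Tslp (0.9982), Il24 (0.9977) and the kallikrein gene Klk8 (0.9972). Rnf19b was at 102 and 142 RPKM in HC11 and at 16.2 to 17.6 RPKM in the other lines, so it shared the shape of Il1a with a far smaller range.

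In the C57MG group, Csf1 was nearest to Ptx3 (0.9998), Ccl2 (0.9992) and Cxcl12 (0.9973), and Ccl2 to Ptx3 (0.9993), Csf1 (0.9992) and the neuropilin gene Nrp1 (0.9958). Ccl7 was nearest to Igfbp4 (0.9999), Col1a1 (0.9989) and Nsg1 (0.9989). The nearest genes of Csf1 and Ccl2 shared their higher level in replicate 2 of both BC44 and HC11, as for Ptx3. Those of Ccl7 were low in HC11, at 0.793 and 1.28 RPKM for Igfbp4 and 0.172 and 0.202 RPKM for Col1a1.

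The neighbouring genes on the chromosome varied in how far they followed the members. Next to Csf3, the proteasome gene Psmd3 was at 69.9 to 89.4 RPKM and the Mediator gene Med24 at 10.9 to 12.4 RPKM over the 6 libraries. The protein-coding gene next to Il1a, Ckap2l, which encodes a spindle protein, was at 40.2 to 67.3 RPKM. Gm14023, which lies between Il1a and Ckap2l, was at 4.05 and 2.90 RPKM in HC11 and at 0.154 or less in the other lines, far below Il1a itself. Ahcyl1, a regulator of calcium release next to Csf1, was at 110.2 and 108 RPKM in C57MG and at 23.9 to 33.6 RPKM in the other lines.

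Among the genes of the table, Tmem98 precedes Ccl2, with 4 other protein-coding genes between them, and Zfp830 follows Ccl7, with 6 between. Tmem98, which encodes a membrane protein, was at 27.6 and 26.9 RPKM in C57MG, 2.87 and 3.16 in HC11 and 0.0840 and 0.491 in BC44. Zfp830 was at 6.28 to 8.98 RPKM in all 6 libraries. Myo1d precedes Tmem98 among the genes of the table. It was at 5.32 and 3.99 RPKM in C57MG, 5.30 and 5.12 in BC44 and 9.24 and 9.40 in HC11. The high C57MG level of Ccl2 and Ccl7 was thus shared by Tmem98 but not by Myo1d.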

How the data were processed

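The authors deposited 1 table of RPKM per gene and library, as its name states. STAR and mm9 are named in the submitters' processing notes, and the read counter, annotation, gene lengths, strand setting and gene filter are not given in the sources used here. Chromosomes, gene order, lengths and transcripts are from GENCODE M21 (GRCm38), which held all 11417 identifiers. Depth was estimated by finding, per library, the read total at which low RPKM values times exonic length most often fell within 0.15 of a whole read (75.3% to 84.1% of them, against 30.0% for unrelated values at 1 given total). It is approximate, because the authors' lengths are unknown.

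The 10759 genes that reached 1 RPKM in 2 or more libraries entered limma 3.58.1 (eBayes with trend, R 4.3.3) on the log2 scale after adding 1, all 6 libraries in 1 model, with two-sided p-values adjusted by Benjamini-Hochberg within each contrast at 0.05. The fit was tested on simulated data. The 3 contrasts share libraries. Some genes of the lists, such as Il24 and Il1rn in HC11 and Gsdmd, Peli2 and Peli3 in C57MG, reached 1 RPKM in no other line. They entered the test only through the line where they were high, so counts that include them are descriptions. Other steps ran in Python 3.11.15 with pandas 2.3.3, numpy 2.4.6 and scipy 1.17.1, and plots were drawn in matplotlib 3.10.9.

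Members and lists were chosen with earlier results of these data known. A gene of a list was analysed if the table used here held it. The text names the members, their receptors, up to 3 non-overlapping genes with the largest change per list and contrast among those past the threshold, the marker genes, and the 3 genes most like each member. Mif, Nfkb1, Rela, Gadd45b, Zfp36, Ppbp and the neighbouring genes were picked once their values were known. Alternative settings were adding 0.1, no filter, a mean of 5 RPKM or more, quantile or median-ratio scaling, fitting the 4 compared libraries alone, the replicate number as a block, and dropping 1 library at a time. One gene of the cytokine list is counted but not reported by name or plotted here.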

Additional observations from a re-analysis of the deposited data

How the results depend on the processing

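Depth limits Il1a, Csf3 and Ccl7 in the lines where they are low, at 1 to 10 estimated reads per line for Il1a and Csf3 and, for Ccl7, 4 in HC11 and 56 in BC44. The members' means in their highest line moved by less than 1 SD under median-ratio scaling. From 1 library alone they were 386 to 1058 RPKM for Il1a, 231 to 595 for Csf3, 442 to 964 for Cxcl1, 339 to 354 for Csf1, 236 to 240.0 for Ccl2 and 205 to 214 for Ccl7.

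A mean of at least 5 RPKM, which tests fewer genes, lowered the counts past the threshold to 4 other chemokines (BC44 against C57MG), to 5, 4 and 5 other cytokines (BC44 with HC11, BC44 with C57MG and HC11 with C57MG, the order of the 3 contrasts used below), to 4 genes of interleukin 1 release (HC11 against C57MG), to 3 of the receptor relay (BC44 against HC11), and to 10 and 11 NF-kB responsive genes (BC44 against HC11 and HC11 against C57MG). With only the 4 libraries compared, 3 relay genes passed between BC44 and HC11, and the cause was not tested. Leaving out each library gave, in that order, 3 to 6, 6 to 8 and 6 to 9 other chemokines, 6 to 11, 7 to 9 and 7 to 13 other cytokines, 2 to 5, 6 to 10 and 3 to 8 relay genes, and 11 to 15, 10 to 12 and 12 to 16 NF-kB responsive genes. It gave 11 to 13, 11 to 13 and 12 to 16 NF-kB genes, 4 to 5, 5 to 7 and 5 to 7 release genes and 5 to 6, 6 to 9 and 8 to 9 stability regulators, with 2 receptor genes throughout. In these fits the lone library of a line is assumed to vary like the others.

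With the replicate block, 6, 7 and 10 other chemokines, 11, 10 and 12 other cytokines, 14, 14 and 16 NF-kB genes, 16, 12 and 17 NF-kB responsive genes, 5, 8 and 7 release genes, 6, 10 and 8 relay genes, 5, 8 and 9 stability regulators and 2 receptor genes passed. It moved no count by over 1.5 times. The correlation of same-numbered libraries' deviations was 0.354 for BC44 with HC11, -0.039 for BC44 with C57MG and 0.038 for HC11 with C57MG. The labels do not say that a number marks a shared batch, so no pairing was assumed, though BC44 and HC11 deviated together. No difference that passed for a named gene changed direction under any alternative run. Those of Cxcl5 (HC11 against C57MG), Myd88 (HC11 against C57MG), Peli1 and Irak4 (BC44 against HC11) and Ikbkg (BC44 against HC11) did not pass under some.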
